A study of Mus musculus with 12 samples.

Results

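The genes of the mitochondrial respiratory chain and ATP synthase were followed in T cells sorted from MC38 tumours, a mouse colorectal carcinoma line. The members were chosen by symbol and comprise 100 of the 33696 genes of the matrices: 13 encoded by mitochondrial DNA (mtDNA) and 87 encoded in the nucleus. The set and its split into mtDNA-encoded and nuclear-encoded genes were selected on UMI sums of the same cells seen earlier, so the sums over either class below are descriptions without a test.

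Tumours grew in mice labelled Kaedehet. Kaede is a fluorescent protein whose colour changes from green to red on exposure to violet light, and on day 14 such light was shone on the lymph node that drains the tumour. Radiation (RT) was a single dose of 12 Gy to the tumour on that day, and NT tumours had none. FTY720, a modulator of sphingosine-1-phosphate receptors that holds lymphocytes in lymphoid tissue, was injected on day 15 into some animals. The 6 groups were RT at day 1 and NT at day 1 (tumours taken 24 h after irradiation), and RT at day 3, NT at day 3, RT+FTY720 at day 3 and FTY720 at day 3 (72 h). Each group had 2 replicates, each a pool of 4 tumours from 4 mice, and every pool was sorted into red and green CD90.2-positive live cells that were labelled with hashtag antibodies. All mice were photoconverted and bore the same tumour line, and the sources used here give neither their age nor their sex. Within a replicate, RT day 1, NT day 1 and NT day 3 shared 1 10x well, and RT day 3, RT+FTY720 and FTY720 shared another. RT against NT at day 3 is therefore a comparison across wells, while RT+FTY720 against FTY720, and RT against NT at day 1, lie within wells. Means and differences of radiation effects that include RT against NT at day 3 hold a part across wells. So does FTY720 against the mean of RT and NT at day 3. A shift between wells cannot be told apart from treatment in that part.

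The respiratory chain passes electrons from NADH (complex I) and succinate (complex II) through complex III to oxygen at complex IV, and ATP synthase (complex V) uses the resulting proton gradient to make ATP. Complex II is wholly nuclear-encoded, whereas each of the other complexes mixes subunits from both genomes. Those from mtDNA are transcribed inside the organelle as long polycistronic RNAs. The others are transcribed in the nucleus, translated in the cytosol and imported. T cells are known to shift between respiration and glycolysis as they leave quiescence, divide and differentiate, and regulatory T cells are known to rely on respiration. The transcription factors NRF1 and GABPA are known to bind promoters of many nuclear-encoded subunits.

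Promoters are shown because the nuclear-encoded genes, which have promoters of their own, parted from the mtDNA-encoded genes in the cell comparisons below. RefSeq promoters (GRCm38.p6) were found for 69 of the 87 nuclear-encoded members, and the 250 bases before each start were searched on both strands. The NRF1 letters, a palindrome shown in capitals in the sequences below, occurred in 4 of the 69 promoters (5.80%), against 237 of 27025 genes in the table (0.877%). The GABPA letters CCGGAAG occurred in 12 of the 69 (17.4%), against 2115 of 27025 (7.83%), and the YY1 motif in 1 of the 69 (1.45%), against 97 of 27025 (0.359%). The motifs were counted separately, so a promoter can hold several. Cox6a1, Atp5g2 and Atp5k, subunits of complex IV and of ATP synthase, carried the NRF1 letters and were higher in dividing CD8 cells (log2 fold changes of 0.34, 0.30 and 0.30), while the other carrier, Ndufa11, had 0.18 and did not pass the test (adjusted p = 0.127, edgeR quasi-likelihood). The 3 were chosen for print because they had the letters and passed. Of all 78 tested nuclear-encoded members 36 were higher there, and Ndufc1 (0.55) and Cox5b (0.47), the largest, lacked the letters. A link between letters and change was not tested. The 3 sequences follow, 5′ to 3′ on the gene's strand and ending at the base before the start, with the NRF1 letters in capitals. They lie on the minus strand at chr5:115348959-115349208 (Cox6a1), chr15:102671048-102671297 (Atp5g2) and chr5:108434400-108434649 (Atp5k). A match of letters is a description and not a measured binding site.
Cox6a1: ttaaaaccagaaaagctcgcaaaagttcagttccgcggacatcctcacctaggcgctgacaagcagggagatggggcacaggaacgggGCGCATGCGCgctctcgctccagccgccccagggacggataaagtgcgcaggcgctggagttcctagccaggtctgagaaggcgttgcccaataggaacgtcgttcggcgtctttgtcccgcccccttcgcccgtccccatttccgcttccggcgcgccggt
Atp5g2: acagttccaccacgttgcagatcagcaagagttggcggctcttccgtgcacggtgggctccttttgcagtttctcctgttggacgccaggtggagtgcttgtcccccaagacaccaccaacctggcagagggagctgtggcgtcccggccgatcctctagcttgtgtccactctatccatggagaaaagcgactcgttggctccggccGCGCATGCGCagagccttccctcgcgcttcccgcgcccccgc
Atp5k: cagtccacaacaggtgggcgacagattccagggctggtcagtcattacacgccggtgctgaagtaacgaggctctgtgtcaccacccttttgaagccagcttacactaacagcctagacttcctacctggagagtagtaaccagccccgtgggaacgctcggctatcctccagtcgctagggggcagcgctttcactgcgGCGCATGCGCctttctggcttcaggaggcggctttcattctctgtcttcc

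Of 2816 barcodes, 2740 were kept, none of them shared between the 4 wells, with 17 to 322 cells and 337319 to 7891316 UMIs in each of the 24 hashed samples. Cells were divided by marker UMIs that include no member: 1584 in a CD8 gate, 505 in a Treg (regulatory T) gate that requires Foxp3, 482 in a CD4conv (conventional CD4) gate that requires Cd4 without Foxp3, and 169 in none. The gates held: Il2ra, the high-affinity interleukin 2 receptor chain, was at 1502 to 2605 CPM (UMIs per 1000000 UMIs of a sum) in Treg sums, against 85.6 to 310 in CD8 sums. A Treg cell without a Foxp3 UMI would fall in the CD4conv gate. Counts were summed per tumour pool and gate, so the pool is the replicate and p-values measure the spread between pools, and a lower value in a sum cannot be told apart between fewer cells of one state and less RNA per cell. Summed markers of other cells were low in CD8 sums (myeloid 5.84 to 22.0 CPM, B cell 0 to 9.08, NK 0 to 23.1, tumour or stroma 0 to 8.92) and higher in some others. In Treg sums myeloid genes reached 131 CPM (NT day 1 replicate 2), and summed tumour or stroma genes 80.8 (RT+FTY720 replicate 2), 44.0 (NT day 3 replicate 1), 40.8 (FTY720 replicate 2) and 34.0 CPM (RT day 3 replicate 1). Of the 5 tumour or stroma genes 1, 2, 2 and 1 were detected there, in the same order. Over Treg sums of at least 10 cells Epcam had a median of 14.9 CPM (4.50 to 39.9), while Krt8, Krt18, Col1a1 and Col3a1 had medians of 0. In CD4conv sums myeloid genes reached 58.0 CPM (RT day 1 replicate 2), and the part of these markers in the results was not tested. The day 3 wells with RT were small: CD8 sums there held 27 to 63 cells and Treg sums 7 to 17.

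Most members were well measured and a few were silent. The mtDNA-encoded genes gave 270341 UMIs for complex I (7 genes), 85959 for complex III (1 gene), 538399 for complex IV (3) and 138362 for complex V (2). The nuclear-encoded genes gave 275705 UMIs for complex I (40 genes), 22736 for complex II (4), 93721 for complex III (8), 245286 for complex IV (18) and 330134 for complex V (17). The members Cox7b2, Cox8c and Ndufb11b had 0 UMIs. The muscle or lung isoforms stayed near 0, with 3 UMIs of Cox6a2, 5 of Cox8b, 14 of Cox4i2 and 77 of Cox7a1 in all kept cells, and Ndufa4l2, a hypoxia-induced relative of Ndufa4, had 1 UMI. The filter on low counts kept 91 members (13 mtDNA-encoded and 78 nuclear-encoded) in most comparisons. Near-identical copies (Ndufb4 with Ndufb4b, Cox5b with Cox5b-ps) and genes that overlap on mtDNA (mt-Nd4l with mt-Nd4, mt-Atp8 with mt-Atp6) can share reads, so their values are uncertain.

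**Figure D1:**
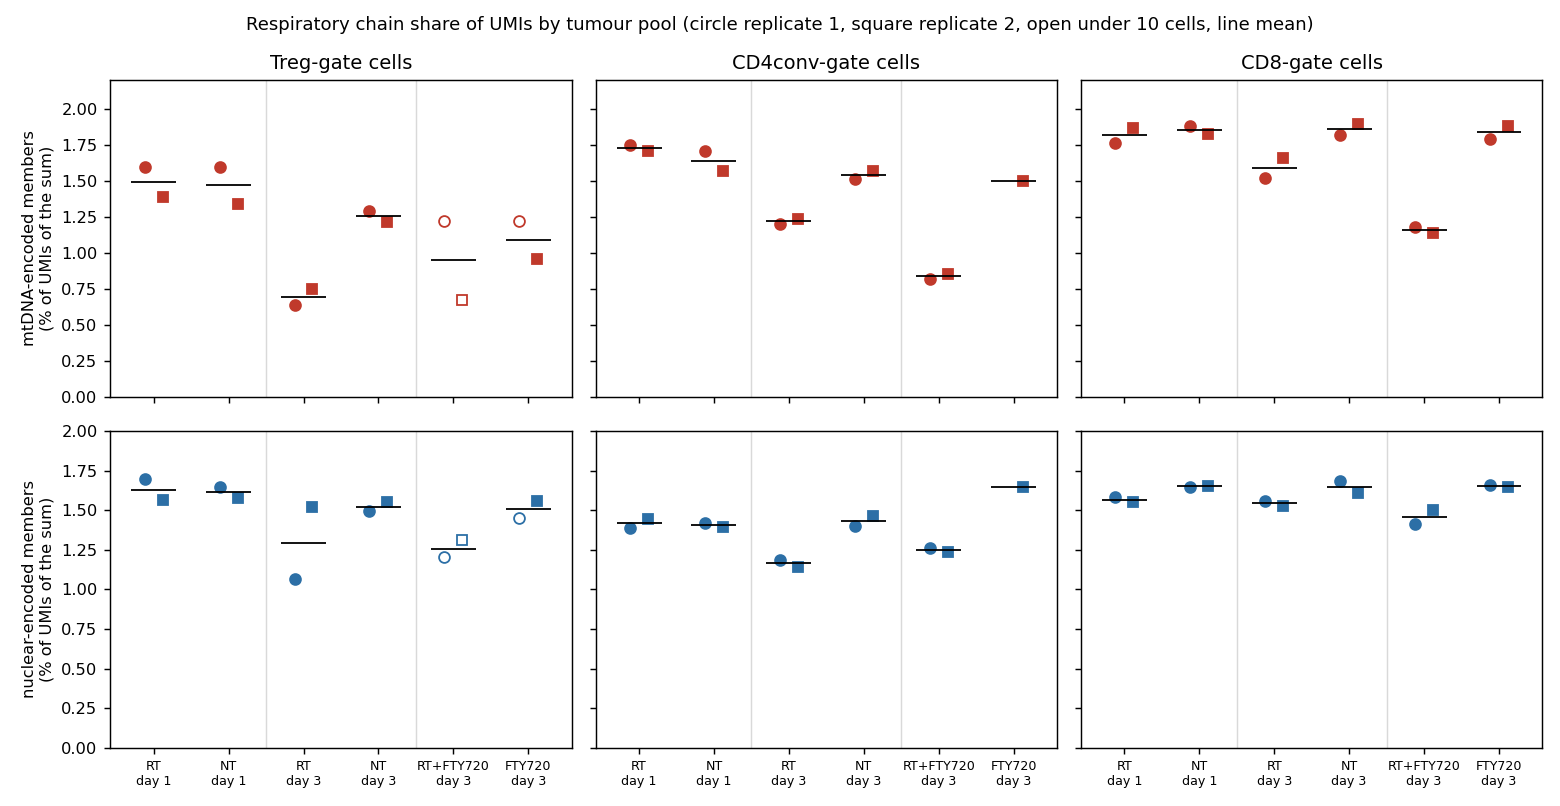
Share of all UMIs held by mtDNA-encoded members (top, red) and nuclear-encoded members (bottom, blue) in each tumour pool, in Treg-gate, CD4conv-gate and CD8-gate cells, with the pool mean as a line. The mtDNA-encoded share is lowest in RT+FTY720 CD8 pools (1.18% and 1.13%), and among Treg pools in both RT day 3 pools (0.635% and 0.745%) and RT+FTY720 replicate 2 (0.671%), while the nuclear-encoded share spans a narrower range. Open symbols mark sums under 10 cells, and the FTY720 replicate 1 sum of 3 CD4conv cells is not drawn.

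In Treg sums mtDNA-encoded RNA took a smaller share of UMIs than in CD8 sums of the same tumour pool. Over the 9 pools with both sums, mtDNA-encoded members took 1.19% ± 0.346 of UMIs in Treg sums and 1.79% ± 0.127 in CD8 sums (SD), lower in 9 of 9 pools. The nuclear-encoded share was 1.52% ± 0.182 in Treg sums and 1.61% ± 0.0547 in CD8 sums, and it was lower in 6 of 9. The ratio of mtDNA-encoded to nuclear-encoded UMIs was 0.776 ± 0.169 in Treg sums, against 1.11 ± 0.0664 in CD8 sums, and it too was lower in 9 of 9.

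By edgeR's quasi-likelihood test with Benjamini-Hochberg adjustment, 12 of the 13 mtDNA-encoded members were lower in Treg than in CD8 sums and 0 were higher, in a comparison where 44% of all 10358 genes passed (19.6% higher and 24.4% lower). Their median log2 fold change was -0.79, beside -0.06 over all genes. The complex I subunit mt-Nd2 had a median of 417 CPM in Treg sums (131 to 467), against 737 (601 to 839.6) in CD8 sums, and the groups did not overlap. Its log2 fold change was -1.11 ± 0.11 (SE, adjusted p = 4.5e-09). mt-Nd5, another complex I subunit, followed at -1.04 ± 0.13, mt-Nd4 at -0.86 ± 0.11 and mt-Nd1 at -0.84 ± 0.10. The complex IV core subunit mt-Co1, the catalytic one, had -0.62 ± 0.09 and cytochrome b (mt-Cytb, complex III) -0.59 ± 0.10. mt-Atp6, the proton channel subunit of ATP synthase, had -0.79 ± 0.09. The exception was mt-Nd6, the gene on the opposite mtDNA strand, with 19.2 to 58.7 CPM in Treg sums and 34.9 to 82.5 in CD8 sums.

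Among the 78 nuclear-encoded members, 31 were lower and 1 was higher in Treg sums, with a median of -0.19. An alternative scaling used library size without mtDNA-encoded UMIs and also left out TMM normalisation, and the parts of these changes were not separated. The mtDNA-encoded count was 12 lower and 0 higher under either scaling. Of the nuclear-encoded members 10 were lower and 5 higher under the alternative, so their general direction depends on the scaling. Cox7a2l, a factor that joins complexes III and IV into supercomplexes, stood lowest of them by fold (-0.64 ± 0.08, adjusted p = 5.3e-07), with a median of 220.0 CPM in Treg sums (109.6 to 264.5) and 319.7 in CD8 sums (207 to 344). Of the 17 ATP synthase genes 7 were lower (41.2%, beside the 24.4% of all genes that were), among them Atp5b, its catalytic beta subunit (-0.45 ± 0.10), and Atp5g1, a proton-carrying c subunit gene (-0.42 ± 0.12). Of 11 tested complex IV genes 8 were lower, among them Cox8a (-0.42 ± 0.07), Cox6a1 (-0.31 ± 0.09) and Cox5a (-0.30 ± 0.10). None of the 8 complex III genes passed the test. Complex II was divided: Sdha, the flavoprotein, was lower (-0.32 ± 0.10), while Sdhb, the iron-sulfur subunit, was the single member higher in Treg sums (0.32 ± 0.11, adjusted p = 0.014), with 102 to 227 CPM against 115 to 145 CPM in CD8 sums, higher in 8 of 9 pools. Without NT day 3 replicate 1, 29 members passed in place of 44. In the wider pathway the counts lay near that of all genes (24.4% lower): 9 of 33 assembly factors were lower (27.3%) and 0 higher, among them Bcs1l, needed for complex III (-1.39 ± 0.31), and Cox10, needed for haem a synthesis (-0.89 ± 0.19). Of the 15 tested genes of mtDNA expression, 4 were lower (26.7%), among them Lrpprc, which stabilises mtDNA-encoded mRNA (-0.96 ± 0.18), and the coactivator gene Ppargc1b (-1.90 ± 0.36), and Polg, the mtDNA polymerase, was higher (0.71 ± 0.14). Malat1, a nuclear-retained RNA, took 0.660% ± 0.288 of UMIs in Treg sums and 0.456% ± 0.116 in CD8 sums, higher in 9 of 9 pools. Pool medians of UMIs per cell averaged 19478 in Treg and 23061 in CD8 sums, lower in 9 of 9. The part of either in the result was not tested.

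CD4conv cells were lower than CD8 cells across both genomes. mtDNA-encoded members took 1.40% ± 0.330 of UMIs in CD4conv sums and 1.67% ± 0.280 in CD8 sums, and nuclear-encoded members 1.36% ± 0.145 and 1.58% ± 0.0808, in the same order (SD, 11 pools), each lower in 11 of 11. The ratio of the classes was 1.02 ± 0.198 in CD4conv sums, against 1.05 ± 0.143 in CD8 sums, and was lower in 7 of 11. Of the mtDNA-encoded members 12 were lower, and of the nuclear-encoded 51 were lower and 0 higher (35.2% of all genes passed), with medians of -0.38 and -0.31 beside -0.01 over all genes. All 17 ATP synthase genes were lower, led by Atp5g1 (-0.72 ± 0.12) and Atp5b (-0.66 ± 0.10), as were 10 of 11 tested complex IV genes, led by Cox5a (-0.63 ± 0.10), and 6 of 8 complex III genes. Atp5g1 had a median of 122 CPM in CD4conv sums (42.1 to 176) and 203 in CD8 sums (114 to 235), lower in 11 of 11 pools. Complex I had 16 of 38 lower, among them Ndufb2 (-0.67 ± 0.13), Ndufb5 (-0.55 ± 0.11) and Ndufa10 (-0.55 ± 0.11), accessory subunits of its membrane arm, and Ndufs1 (-0.39 ± 0.14), the large subunit of the NADH module. The Ndufs1 call was kept in 4 of 11 fits that left out a pool. Cox7a2l was not among the genes that passed, with 154 to 346 CPM in CD4conv sums and 188 to 344 in CD8 sums. The alternative scaling, without mtDNA-encoded UMIs and without TMM, moved the median of all genes by 0.10. It left 10 mtDNA-encoded and 37 nuclear-encoded members lower. Under it, 61.1% of all calls were higher in CD4conv sums, against 44.5% with the main scaling. Of a list of 6 genes of carriers and cytochrome c, 5 were lower, among them Cycs, cytochrome c (-0.69 ± 0.09), and Slc25a5, an ATP/ADP carrier (-0.78 ± 0.10), and 1 was higher, Ucp2, an uncoupling protein relative (0.30 ± 0.10), where 19.5% of all genes were lower and 15.7% higher. RNA composition and depth differed as well. Malat1 took 0.787% ± 0.186 of UMIs in CD4conv sums and 0.502% ± 0.145 in CD8 sums, higher in 11 of 11 pools. Median UMIs per cell were 14927.5 in the CD4conv gate and 22647.5 in the CD8 gate, and the part of either in the result was not tested.

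The 2 CD4 populations differed from each other in opposite directions for the 2 genomes. Against CD4conv sums of the same pools, Treg sums had 10 mtDNA-encoded members lower and 0 higher (median -0.36), but 24 nuclear-encoded members higher and 1 lower (median 0.20). Of all genes 30.7% passed, 15.4% higher and 15.4% lower, with a median of -0.02. The nuclear-encoded members that passed in either direction (32.1%) were thus near the share of all genes, and the difference lay in their direction. The share of nuclear-encoded UMIs was 1.52% ± 0.182 in Treg sums and 1.39% ± 0.150 in CD4conv sums, higher in 7 of 9 pools, and the mtDNA-encoded share was 1.19% ± 0.346 and 1.52% ± 0.197, in the same order, lower in 9 of 9. The higher genes came from every complex: Sdhb (0.51 ± 0.11), the complex III genes Uqcr11 (0.48 ± 0.11), Uqcrb (0.37 ± 0.11) and Uqcrc1 (0.32 ± 0.11), the complex I genes Ndufb7 (0.47 ± 0.10) and Ndufc2 (0.41 ± 0.12), Cox5a (0.33 ± 0.10) and the ATP synthase delta subunit gene Atp5d (0.36 ± 0.08). Sdhb had a median of 184 CPM in Treg sums (102 to 227) and 128 in CD4conv sums (74.4 to 168), higher in 9 of 9 pools. The lower nuclear-encoded gene was again Cox7a2l (-0.53 ± 0.09, adjusted p = 2.6e-05). From the TCA cycle list only Mdh2, mitochondrial malate dehydrogenase, is named here. It was higher (0.69 ± 0.10) and does not stand for the list. Depth and RNA composition differed here too. Pool medians of UMIs per cell averaged 19478 in Treg and 15767 in CD4conv sums, higher in 7 of 9 pools. Malat1 took 0.660% ± 0.288 of UMIs in Treg sums and 0.751% ± 0.153 in CD4conv sums, lower in 7 of 9. The part of either in the result was not tested.

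**Figure D2:**
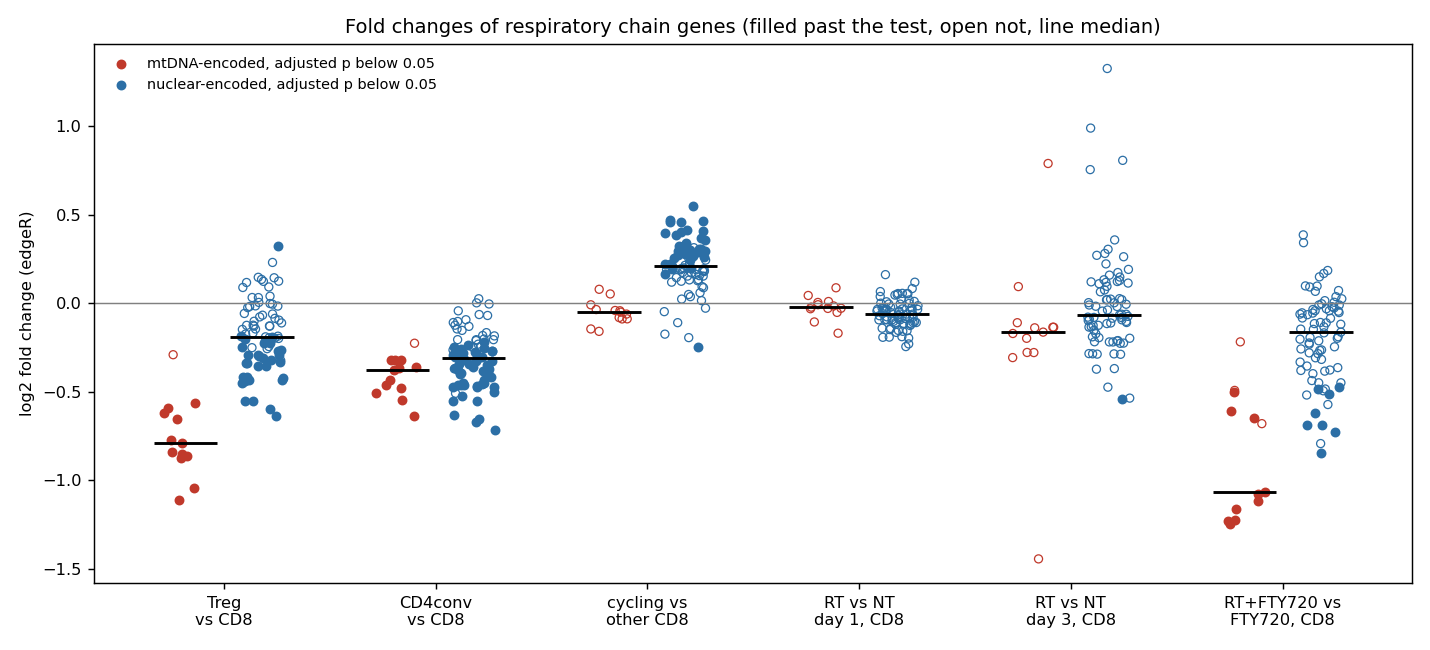
Log2 fold change of each tested member, mtDNA-encoded in red and nuclear-encoded in blue, in 6 comparisons, with the class median as a line. Filled points passed the edgeR test at an adjusted p of 0.05 and open points did not. The mtDNA-encoded medians lie at -0.79 for Treg against CD8 and at -1.06 for RT+FTY720 against FTY720 in CD8 cells, while the nuclear-encoded medians there are -0.19 and -0.17.

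Within CD8 cells, dividing (cycling-gate) cells were set against the others of the same pool. In cycling sums many nuclear-encoded genes were higher, while no mtDNA-encoded gene passed the test. The gate took 300 CD8 cells with at least 5 UMIs of 7 mitotic genes. The nuclear-encoded share was 1.77% ± 0.109 in cycling sums and 1.504% ± 0.0673 in other CD8 sums (SD, 12 pools), higher in 12 of 12. The mtDNA-encoded share was 1.63% ± 0.247 in cycling sums and 1.70% ± 0.286 in other sums, higher in 4 of 12. Cycling cells were deeper, with medians of 34785 UMIs per cell against 20852, and shares and CPM are relative to those totals. Malat1 took 0.325% ± 0.102 of UMIs in cycling sums and 0.559% ± 0.158 in other sums, lower in 12 of 12 pools, and the part of depth and of Malat1 in the result was not tested.

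Of the 78 nuclear-encoded members 36 were higher in cycling sums and 1 was lower, where 11.6% of all genes were higher and 10.1% lower. Their median log2 fold change was 0.21, beside -0.03 over all genes. The largest was Ndufc1, a small complex I subunit (0.55 ± 0.08, adjusted p = 4.7e-05), with a median of 111 CPM in cycling sums (86.9 to 126) and 72.8 in other sums (52.9 to 93.9), higher in 12 of 12 pools. Cox5b (0.47 ± 0.06) did not overlap at all, with 373 to 530.1 CPM in cycling sums against 260 to 328 in other sums. Complex IV had 9 of 11 higher, including Cox5a (0.46 ± 0.07), Cox6a1 (0.34 ± 0.06), whose promoter is printed above, and Cox8a (0.22 ± 0.06). ATP synthase had 10 of 17 higher, including Atp5j (0.46 ± 0.07), Atp5g3 (0.41 ± 0.07), Atp5o (0.40 ± 0.07), Atp5b (0.39 ± 0.08) and Atp5g1 (0.30 ± 0.09). Complex I had 11 of 38 higher, including Ndufc2 (0.47 ± 0.10), Ndufa5 (0.41 ± 0.10) and the NADH-binding Ndufv1 (0.38 ± 0.10), with Ndufa6 the lower gene (-0.24 ± 0.08), and Sdha of complex II was higher (0.31 ± 0.11). The Ndufa6 and Sdha calls were each kept in 4 of 12 fits that left out a pool. For the mtDNA-encoded genes 0 passed in edgeR and 1 of 13 had an unadjusted p below 0.05, with mt-Co1 at -0.16 ± 0.06 and mt-Cytb at -0.04 ± 0.09. Cytochrome c (Cycs, 0.28 ± 0.08), Slc25a5 (0.40 ± 0.10), the acyl carrier protein Ndufab1 (0.49 ± 0.09), Fh1 of the TCA cycle (0.59 ± 0.11) and Tfam, which packages mtDNA and starts its transcription (0.40 ± 0.13), were higher as well. These are single genes of wider lists and do not stand for those lists.

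**Figure D3:**
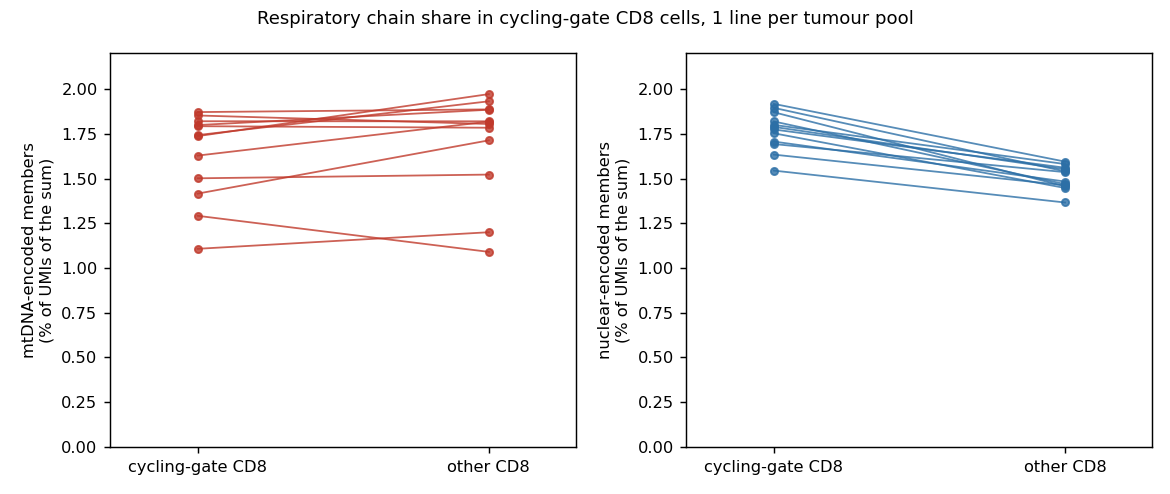
Share of UMIs of mtDNA-encoded (left) and nuclear-encoded (right) members in cycling-gate CD8 cells and in the other CD8 cells of the same pool, with 1 line for each of 12 tumour pools. The cycling sums average 1.77% nuclear-encoded UMIs against 1.504%, higher in 12 of 12 pools.

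At day 1 no member passed the test between irradiated and unirradiated tumours in any gate, and at day 3 mtDNA-encoded RNA was lower in irradiated tumours. In CD8 sums at day 1, the mtDNA-encoded share was 1.76% and 1.86% in RT pools, against 1.88% and 1.82% in NT pools. By edgeR 0 of 91 members passed in CD8, Treg and CD4conv sums at day 1, with 0 at an unadjusted p below 0.05 and 0 by DESeq2 in each, where 0.0568%, 0.0255% and 0% of all genes passed. On simulated data the CD4conv test at day 1 recovered 29% of 2-fold changes, so changes of that size could be missed there. mt-Nd1 had a log2 fold change of -0.02 ± 0.11 and Cox7a2l of 0.12 ± 0.10 in CD8 sums.

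At day 3 the CD8 mtDNA-encoded share was 1.51% and 1.65% in RT pools, against 1.82% and 1.89% in NT pools, and 1.18% and 1.13% in RT+FTY720 pools, against 1.79% and 1.88% in FTY720 pools. All 4 irradiated pools lay below all 4 unirradiated ones. The nuclear-encoded share was 1.56% and 1.53% in RT pools, against 1.68% and 1.61% in NT pools, and 1.41% and 1.499% in RT+FTY720 pools, against 1.66% and 1.65% in FTY720 pools. ATP synthase genes carried part of that, with 0.527% and 0.502% of UMIs in RT pools, against 0.574% and 0.560% in NT pools, and 0.446% and 0.487% in RT+FTY720 pools, against 0.587% and 0.567% in FTY720 pools. Cycling-gate cells made up 16.7% of CD8 cells in both RT+FTY720 pools, against 29.6% and 19.0% in FTY720 pools. They made up 17.2% and 13.5% in RT pools, against 17.6% and 14.1% in NT pools. Without them the nuclear-encoded share was 1.37% and 1.463% in RT+FTY720 pools, against 1.457% and 1.54% in FTY720 pools, with overlap. It was 1.45% and 1.48% in RT pools, against 1.59% and 1.56% in NT pools. The part of cycling cells was not tested.

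Averaged over the strata with and without FTY720, 9 mtDNA-encoded members were lower and 0 higher in irradiated CD8 sums, and 9 nuclear-encoded members were lower and 1 higher, where 13.8% of all genes passed (7.45% higher and 6.39% lower). The medians were -0.62 and -0.13, beside -0.01 over all genes. mt-Nd2 had 601 and 607 CPM in RT pools, against 736 and 809 in NT pools, and 361 and 331 in RT+FTY720 pools, against 794 and 839.6 in FTY720 pools. The irradiated and unirradiated pools did not overlap (-0.78 ± 0.08, adjusted p = 1.6e-04). The nuclear-encoded genes that were lower included 4 of ATP synthase, Atp5g1 (-0.69 ± 0.12), Atp5a1, the alpha subunit (-0.45 ± 0.09), Atp5g2 (-0.42 ± 0.07) and Atp5h (-0.29 ± 0.08), as well as Cox7a2l (-0.51 ± 0.08) and Ndufa10 (-0.51 ± 0.10). Atp5g1 had 141 and 138 CPM in RT pools, against 203 and 214 in NT pools, and 114 and 145 in RT+FTY720 pools, against 259 and 211 in FTY720 pools. Cox7a2l had 207 and 228 CPM in RT pools, against 321 and 334 in NT pools, and 188 and 206 in RT+FTY720 pools, against 267 and 282 in FTY720 pools. Ndufa13, an accessory complex I subunit, was higher (0.30 ± 0.09, adjusted p = 0.049), a call kept in 1 of 12 fits that left out a pool. Over the 3 strata with day 1 included, 9 mtDNA-encoded and 8 nuclear-encoded members were lower and 0 were higher, where 11.7% of all genes passed (6.39% higher and 5.35% lower).

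RT+FTY720 against FTY720 is a comparison within wells, with a lower share of cycling-gate cells in RT+FTY720 pools, as given above. There 10 of 13 mtDNA-encoded and 8 of 78 nuclear-encoded members were lower and 0 were higher (9.44% of all genes passed, 5.05% higher and 4.4% lower), with medians of -1.06 and -0.17. mt-Cytb had 644 and 771 CPM in RT+FTY720 pools, against 1665 and 1648 in FTY720 pools (-1.23 ± 0.11, adjusted p = 4.2e-04). mt-Nd2 (-1.25 ± 0.12), mt-Nd4l (-1.16 ± 0.10), mt-Nd1 (-1.12 ± 0.11), mt-Nd4 (-1.08 ± 0.11) and mt-Nd5 (-1.06 ± 0.11), all of complex I, had log2 fold changes of similar size. The ATP synthase and complex IV genes of mtDNA had smaller folds: mt-Atp6 fell by 0.65 ± 0.13, mt-Co3 by 0.61 ± 0.11 and mt-Co2 by 0.50 ± 0.10 on the log2 scale. mt-Co1 did not pass (-0.22 ± 0.11), with 3744 and 3446 CPM in RT+FTY720 pools, against 3885 and 4456 in FTY720 pools. Of the nuclear-encoded genes, Atp5g1 (-0.84 ± 0.17), Ndufa10 (-0.73 ± 0.15), Atp5a1 (-0.69 ± 0.13), Ndufa4 (-0.68 ± 0.13), counted here with complex I by its symbol and now assigned to complex IV, and Cox7a2l (-0.48 ± 0.11) were lower. Tfam (-0.91 ± 0.25) and Ppargc1b (-1.64 ± 0.47) were the 2 of 17 genes of mtDNA expression that passed, both lower. Without FTY720 replicate 1, 11 members passed in place of 18, and without RT+FTY720 replicate 1, 10 passed.

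RT against NT at day 3, across wells, had 1 member past the test, Cox7a2l (-0.54 ± 0.11, adjusted p = 0.014), where 4.37% of all genes passed (3.06% higher and 1.31% lower). With the replicate number as a block 4 members passed, of which Cox7a2l was lower and 3 were higher, mt-Nd6 (0.76 ± 0.18), Ndufb1 of complex I (0.84 ± 0.19) and Atp5k of ATP synthase (0.79 ± 0.18), so the balance of directions turned. It turned with no filter on low counts as well, with 5 higher and 3 lower, and 0 passed when either NT pool of that day or replicate 1 of RT was left out. Ndufb1 and Atp5k also differed by well, as given below. The mtDNA-encoded median was -0.16, with mt-Nd2 at -0.31 ± 0.12 and mt-Cytb at -0.11 ± 0.11, which had 1301 and 1306 CPM in RT pools, against 1441 and 1468 in NT pools. Pprc1, a relative of the PGC-1 coactivators, was lower there (-1.46 ± 0.32). The effect of radiation with FTY720 minus that without was tested itself: mt-Cytb (-1.12 ± 0.16) and mt-Nd4l (-0.99 ± 0.14) passed, each with an adjusted p of 0.029, where 0.0663% of all genes passed (0.0284% higher and 0.0379% lower). That count was 0 or 1 when any of 11 of the 12 pools was left out. Radiation at day 3 minus radiation at day 1 passed for 4 members (0.871% of all genes), mt-Nd2, mt-Nd1, mt-Nd4l and Cox7a2l, for 2 with the replicate block, and for 0, 1 or 7 when any of 11 pools was left out. Both differences include RT against NT at day 3, across wells, so a shift between wells cannot be told apart from them.

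**Figure D4:**
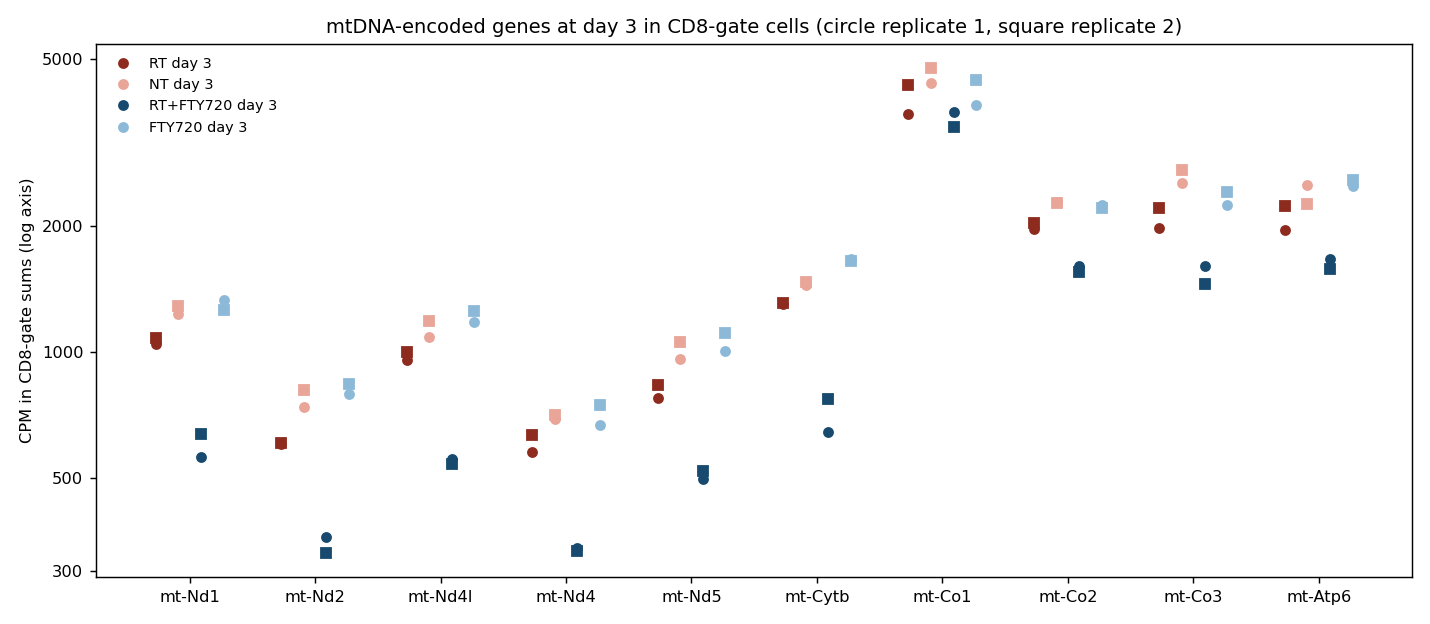
CPM on a log axis of 10 mtDNA-encoded genes in CD8-gate sums at day 3, by group and replicate. The RT+FTY720 pools lie apart for the complex I genes and mt-Cytb (644 and 771 CPM, against 1665 and 1648 in FTY720 pools), while mt-Co1 overlaps between RT pools and FTY720 pools. The low genes mt-Nd3, mt-Nd6 and mt-Atp8 are not drawn.

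RNA composition moved with these differences. Malat1 took 0.670% ± 0.0697 of UMIs in irradiated day 3 CD8 pools and 0.409% ± 0.0635 in unirradiated ones (SD, n = 4 each), and its part in the result was not tested. Median UMIs per cell were 20292.5 to 26632 in irradiated and 20038 to 26641 in unirradiated CD8 pools. Of the 22 barcodes over 10% mitochondrial UMIs that were left out, 0 came from the well groups RT day 3, RT+FTY720 and FTY720, 8 from RT day 1, 8 from NT day 1 and 6 from NT day 3, and the counts of calls under FTY720 were 18 with no such filter and 19 at a limit of 5%. mt-Atp8 followed the well rather than the group: 239 CPM in RT day 1, 232 in NT day 1 and 245.0 in NT day 3 of replicate 2, against 84.5, 103 and 102 in the same groups of replicate 1, and 35.7 to 79.0 in the other wells. Ndufb1 and Atp5k also differed by well, given here for CD8 sums without cycling cells and in the same order. Ndufb1 had 142, 138 and 140 CPM in replicate 2, 231, 212 and 239 in replicate 1, and 280 to 342 in the other wells, with 280 in both FTY720 pools. Atp5k had 78.0, 84.0 and 88.5 CPM in replicate 2, 131, 125 and 137 in replicate 1, and 159 to 194 in the other wells.

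Some mtDNA-encoded genes were also lower in Treg and CD4conv sums of irradiated tumours at day 3. The Treg share of mtDNA-encoded UMIs was 0.635% and 0.745% in RT pools, against 1.29% and 1.21% in NT pools, and 1.22% and 0.671% in RT+FTY720 pools (8 and 9 cells), against 1.22% and 0.954% in FTY720 pools (7 and 16 cells), so the shares overlapped with FTY720 and not without it. Averaged over both strata, 3 Treg members were lower (2.18% of all genes passed): mt-Nd4l (-1.07 ± 0.17), mt-Nd2 (-1.05 ± 0.19) and mt-Nd4 (-0.93 ± 0.20). mt-Nd2 had 131 and 211 CPM in RT pools, against 430.4 and 445 in NT pools, and 187 and 184 in RT+FTY720 pools, against 329 and 353 in FTY720 pools, with no overlap. Over all 3 strata mt-Nd2 (-0.72 ± 0.14) and mt-Nd4l (-0.70 ± 0.13) were lower (1.77% of all genes passed), and without RT+FTY720 replicate 2 neither passed. Counts moved from 3 to 5 without RT day 3 replicate 2 or RT+FTY720 replicate 1, and over 3 strata to 1 without NT day 1 replicate 1 or NT day 3 replicate 2 and to 4 without RT day 3 replicate 2 or RT+FTY720 replicate 1. The Treg Malat1 share was 1.29% ± 0.372 in irradiated and 0.667% ± 0.0707 in unirradiated pools (SD, n = 4 each), and its part was not tested.

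In CD4conv sums the mtDNA-encoded share was 1.20% and 1.23% in RT pools, against 1.51% and 1.56% in NT pools, and 0.818% and 0.852% in RT+FTY720 pools, against 1.495% in the FTY720 pool with at least 5 cells. There 5 mtDNA-encoded and 5 nuclear-encoded members were lower and 0 higher (4.88% of all genes passed), with medians of -0.68 and -0.37 beside -0.05 over all genes. They were mt-Nd4l (-0.88 ± 0.18), mt-Nd1 (-0.85 ± 0.15), mt-Nd2 (-0.79 ± 0.20), mt-Cytb (-0.77 ± 0.18) and mt-Co3 (-0.60 ± 0.13), with Ndufa10 (-1.29 ± 0.29), Ndufa12 (-1.18 ± 0.31), Atp5g1 (-1.09 ± 0.28), Atp5b (-0.79 ± 0.17) and Atp5a1 (-0.78 ± 0.17). Ndufa10 had 44.1 and 54.6 CPM in RT pools, against 96.5 and 89.9 in NT pools, and 13.4 and 28.1 in RT+FTY720 pools, against 68.9 in FTY720 replicate 2. The count fell to 5 without NT day 3 replicate 1, RT day 3 replicate 1 or RT day 3 replicate 2, and to 1 without NT day 3 replicate 2. Malat1 took 0.964% ± 0.202 of UMIs in irradiated (n = 4) and 0.682% ± 0.0623 in unirradiated CD4conv pools (SD, n = 3), and its part was not tested. The difference between the Treg and CD8 radiation effects passed for 0 of 91 members in edgeR and in DESeq2, with 1 at an unadjusted p below 0.05 and 0.00978% of all genes past the test. On simulated data that test recovered 47% of 2-fold differences, so differences of that size could be missed.

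FTY720 itself and time without treatment gave no called member in edgeR. For the mean of both FTY720 groups against that of RT and NT at day 3, CD8 sums had 0 members past the test (0% of all genes), 10 at an unadjusted p below 0.05 and 6 by DESeq2, with an mtDNA-encoded median of -0.32 and mt-Nd1 at -0.40 ± 0.08 (adjusted p = 0.402). Treg sums had 0, with 2 at an unadjusted p below 0.05 and 0 by DESeq2 (0% of all genes). NT at day 3 against NT at day 1 had 0 members in CD8 sums (0.0189% of all genes) and in Treg sums (0%), with 0 and 1 at an unadjusted p below 0.05 and 0 by DESeq2 in both.

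No member passed the test between red cells, labelled in the node before they were found in the tumour, and green cells, and the direction of the mtDNA-encoded share depends on how colours are read. In replicate 2 the matrices' hashtag names exchange red and green relative to the tag numbers of the labels for all 12 hashed samples, and which is right was not settled. By the matrices' names, the Treg mtDNA-encoded share was 1.32% ± 0.314 in red and 1.08% ± 0.285 in green cells (SD, 6 pools), higher in 6 of 6. By the labels' tag numbers it was 1.21% ± 0.311 in red and 1.19% ± 0.346 in green cells, higher in 3 of 6. In CD4conv sums it was 1.65% ± 0.336 in red and 1.34% ± 0.250 in green cells by the matrices' names, higher in 9 of 9 pools, but 1.49% ± 0.379 in red and 1.503% ± 0.289 in green cells by the tag numbers, higher in 3 of 9. In CD8 sums it was 1.73% ± 0.323 in red and 1.62% ± 0.240 in green cells by the matrices' names, higher in 10 of 12, but 1.64% ± 0.316 in red and 1.71% ± 0.256 in green cells by the tag numbers, higher in 4 of 12. The order of red and green was therefore not established in any gate.

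By the matrices' names edgeR passed 0 members in each gate, with 24, 12 and 21 at an unadjusted p below 0.05 and 5, 6 and 7 by DESeq2, where 0.624%, 0.807% and 4.47% of all genes passed in Treg, CD4conv and CD8 sums. By the tag numbers edgeR passed 0 members in each gate as well. The mtDNA-encoded medians were 0.37, 0.36 and 0.17 by the matrices' names, with all 13 folds positive in each gate, and 0.12, -0.07 and -0.08 by the tag numbers, with 9, 3 and 1 of 13 positive. By the matrices' names, 2 members passed in CD8 sums without NT day 3 replicate 1, 4 did without RT+FTY720 replicate 1, and 1 passed in CD4conv sums without RT+FTY720 replicate 2.

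Across the 32 sums of pools and gates, the nuclear-encoded members that followed the nuclear-encoded total most closely were Cox5a (Pearson r of log2 CPM 0.950), Atp5b (0.908), Atp5g1 (0.905), Atp5g3 (0.891) and Uqcrq (0.884), which are part of that total. The closest other genes were Hnrnpab (0.922), Eif3b (0.920), Hprt (0.913), Cdca7 (0.908) and Ppia (0.906). The summed mtDNA-encoded members had 0.629. These values describe sums that share pools, wells and depth.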

How the data were processed

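The authors deposited raw UMI counts per gene and barcode from Cell Ranger 8.0.1 on build mm39, per the submitters' processing notes, from the GEM-X 5' v3 kit named in the labels' protocols. Barcodes had been called as cells before deposit.

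Members and lists were chosen with earlier results of these data known. Barcodes with at least 500 genes, at most 10% mitochondrial UMIs and a hashtag of at least 20 UMIs and 3 times the next were kept. The mitochondrial limit acts on the members themselves. No doublet caller was run beyond the hashtags, and 90 kept cells with 2 TCR beta chains were left out in an alternative. The CD8 gate needed at least 2 UMIs of Cd8a and Cd8b1 and 4 times Cd4, and the Treg gate at least 2 UMIs of Foxp3. Counts were summed per pool and gate (at least 10 cells; 5 where a gate was split by state or colour).

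edgeR 4.0.16 in R 4.3.3 (filterByExpr, TMM, quasi-likelihood test) was fitted on all genes with Benjamini-Hochberg adjustment at 0.05, with 6 condition means, or with the pool as a block for comparisons inside pools. No Treg sum of RT+FTY720 reached 10 cells, so Treg and CD4conv condition fits used sums of at least 5. Comparisons restricted to day 3, differences between radiation effects and CD4conv radiation were added after the data were seen. On simulated data with known changes, the Treg against CD8 fit recovered 92% of 2-fold changes. For radiation over 3 strata recovery was 86% in CD8 sums and 58% in Treg sums. It was 29% for radiation at day 1 in CD4conv sums and 47% for the Treg minus CD8 radiation effect. A lack of calls in such fits does not exclude changes of that size. Genes were named as the 10 largest changes per direction among those that passed, plus a fixed list, and others were named after their values were seen. A further comparison within CD8 cells is not reported here. Figures used matplotlib 3.10.9.

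Replicate numbers mark a shared 10x well within each group of 3 conditions, per the labels' titles, and so pair conditions of 1 well. The correlation of deviations between conditions of 1 well was -0.00966 to 0.189. Alternatives were DESeq2 1.42.0, library size without mtDNA-encoded UMIs and without TMM, no filter on low counts and other mitochondrial limits. Further ones were stricter gates and hashtags, label colours, the replicate block and each pool left out. The stricter hashtag limit left out 0 cells, so that fit repeated the main one and tested nothing further. PCR and droplet sampling are covered only as far as pools vary.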

Additional observations from a re-analysis of the deposited data

Results flagged for a closer look

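In CD8 sums, the effect of radiation at day 3 minus that at day 1 passed the edgeR test of the difference itself for 4 members, with log2 differences of -0.73 for mt-Nd2, -0.64 for mt-Nd1, -0.64 for mt-Nd4l and -0.63 for Cox7a2l. Each was kept in 2 of 12 fits that left out a pool.

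The effect of radiation with FTY720 minus that without differed for mt-Cytb (-1.12 on the log2 scale), a call kept in 3 of 12 such fits, and for mt-Nd4l (-0.99), kept in 1 of 12. This difference and that between days include RT against NT at day 3, across wells. A shift between wells cannot be told apart from them. Dixon's criterion, which flags about 1 in 20 groups by chance, was applied to the mtDNA-encoded and nuclear-encoded shares of groups of 4 pools. None of these groups held a single pool far from the others. The unirradiated CD4conv group at day 3 had 3 pools, too few for the criterion, and was not tested.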

How the results depend on the processing

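Counts of members past the edgeR test moved by more than 1.5 times as follows. Among radiation results without FTY720 the balance of calls reversed, with 0 higher and 1 lower as reported, 3 higher and 1 lower with the replicate block, and 5 higher and 3 lower with no filter on low counts. Signs were compared for the 10 largest called changes per direction and the fixed list, and no called member among these changed sign. With the library size without mtDNA-encoded UMIs, which also left out TMM, Treg against CD8 had 27 in place of 44. Radiation without FTY720 had 2 in place of 1 and Treg radiation at day 3 had 5 in place of 3. With DESeq2, cycling CD8 had 57 in place of 37, FTY720 in CD8 6 in place of 0, radiation without FTY720 2, day 3 minus day 1 9 in place of 4, with minus without FTY720 7 in place of 2, Treg radiation 4 in place of 2 over 3 strata and 7 at day 3, and red against green 7 (CD8), 5 (Treg) and 6 (CD4conv) in place of 0. With no filter on low counts, these were 23 for cycling CD8, 7 for FTY720, 8 for radiation without FTY720, 8 for day 3 minus day 1, 9 for with minus without FTY720, 4 and 5 for Treg radiation, 19 in place of 10 for CD4conv radiation at day 3, and 7 (Treg) and 1 (CD4conv) for colour. Stricter gates gave 5 for Treg radiation at day 3 and 1 for Treg colour. Without cells with 2 TCR beta chains there were 4 for with minus without FTY720 and 2 for CD4conv colour. The replicate block gave 4 for radiation without FTY720 and 2 for day 3 minus day 1, and moved no other count past 1.5 times. The cause of these changes was not tested.

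With 1 pool left out, counts ranged from 29 to 44 (Treg against CD8), 53 to 67 (CD4conv against CD8), 25 to 45 (Treg against CD4conv), 29 to 41 (cycling), 12 to 19 (CD8 radiation, 3 strata), 15 to 21 (day 3), 10 to 21 (under FTY720), 0 to 1 (without FTY720), 0 to 7 (day 3 minus day 1), 0 to 2 (with minus without FTY720), 0 to 4 and 2 to 5 (Treg radiation over 3 strata and at day 3), 1 to 12 (CD4conv radiation at day 3), and 0 to 4 (CD8) and 0 to 1 (CD4conv) for colour. The difference in CD8 mtDNA-encoded share at day 3 ranged from -0.570 to -0.396 percentage points and that in nuclear-encoded share from -0.169 to -0.121. Without mtDNA-encoded UMIs in the library size and without TMM, calls over all genes were higher in Treg than CD8 for 56.0%, against 44.6%. They were higher in irradiated Treg at day 3 for 59.1%, against 71.3%. In red they were higher for 42.6% (CD8) and 30.6% (Treg), against 54.4% and 44.2%. Sums of 7 to 63 cells in the RT day 3, RT+FTY720 and FTY720 wells limit the precision of every radiation value at day 3. For 11 combinations of a fit and a left-out pool no separate value exists, since the pool was not in the fit.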
